A study of Arabidopsis thaliana with 22 samples.

Results

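The *pab2 pab8* double mutant of *Arabidopsis thaliana* lacks function of a pair of genes for poly(A) binding proteins, and its mRNAs were compared here between polysomes and the lighter part of a sucrose gradient. The comparison rests on 4 polysomal (PL) and 4 non-polysomal (NP) RNA samples of the mutant, 8 of the 22 arrays of the series. The samples are aerial parts of seedlings in the Columbia ecotype, grown for 10 to 12 days in continuous light on agar with 1% sucrose. The 4 replicates were grown at different times, and each gave 1 PL and 1 NP sample. The mutant carries 1 T-DNA insertion allele of each gene and was grown alongside wild-type Columbia, whose 4 PL and 4 NP samples are used beside it. Both genotypes were otherwise grown alike and received no treatment.

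A poly(A) binding protein coats the poly(A) tail of an mRNA and contacts initiation factors at the cap, and it is known to promote translation and to protect mRNAs from decay. *Arabidopsis* has a family of such genes, and *PAB4* is intact in the mutant. An mRNA that carries several ribosomes sediments with the polysomes, while free mRNA and single ribosomes stay in the NP fraction. The translation state (TL) is the ratio of PL to NP signal. It is given here as log2 TL, the log2 PL signal minus the log2 NP signal of the same replicate, so 1 means 2-fold more signal in PL. The signals are relative to the scaling of the arrays, so log2 TL ranks mRNAs by ribosome loading but does not give the share of an mRNA on polysomes.

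The genes and conditions were checked first. In total RNA, *PAB2* had a mean log2 signal of 5.01 in *pab2 pab8* and 10.75 in wild-type, and *PAB8* had 6.33 in *pab2 pab8* and 10.06 in wild-type (n = 3 each), so both labels held. Median log2 signals of the PL arrays were 4.93 to 4.99, and those of the NP arrays were 4.96, 4.68, 4.95 and 4.95 in replicates 1 to 4. PL arrays spread more widely than NP arrays, with an SD over probe sets of 2.05 to 2.15 for PL and 1.92 to 2.0 for NP. Of the markers of leaf and root fixed for a check of the tissue, 1 of 5 leaf genes and 2 of 6 root genes were matched to a probe set. The leaf gene *RCA*, for the activase of Rubisco, had a log2 signal of 14.31 in total RNA but only 3.83 on the PL and NP arrays, whereas *PSAE-1* and *PSAG* of photosystem I reached 13.06 and 12.82 there. The root gene *EXPA7* of root hairs was dim with 3.98, and *PYK10*, a glucosidase of roots and hypocotyls, was bright with 9.27. In total RNA of the mutant they had 4.25 and 12.16, where the array medians were 6.17 to 6.23.

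Called probe sets were more often higher than lower in PL, by a margin that depended on the scaling. Of 22746 probe sets, 1428 were called higher in PL (6.28%) and 534 lower in PL (2.35%), by limma on the 4 replicate differences with a false discovery rate (FDR) below 0.05 and at least a 2-fold difference. Without the fold criterion, 5202 passed on the higher side (22.9%) and 3075 on the lower side (13.5%). Mean log2 TL ran from -3.25 to 3.35 with a median of -0.04, and its middle 50% lay between -0.25 and 0.34. Of the 1962 called probe sets, 1959 had all 4 replicates on 1 side of 0. The 8 arrays did not overlap for 1259 of those higher and 503 of those lower, where over all probe sets PL lay wholly above NP for 14.7% and wholly below for 10.5%. The share of calls in the higher direction, 72.8%, moved with scaling. It was 63.8% (1118 higher, 635 lower) after median centring of the arrays and 50.3% (821 higher, 811 lower) after joint quantile normalization of the 8 arrays, which kept 815 of the higher and 525 of the lower calls. With 4 pairs, the smallest two-sided p of an exact permutation test of 1 gene is 0.125, so calls rest on the fit across all probe sets.

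**Figure D1:**
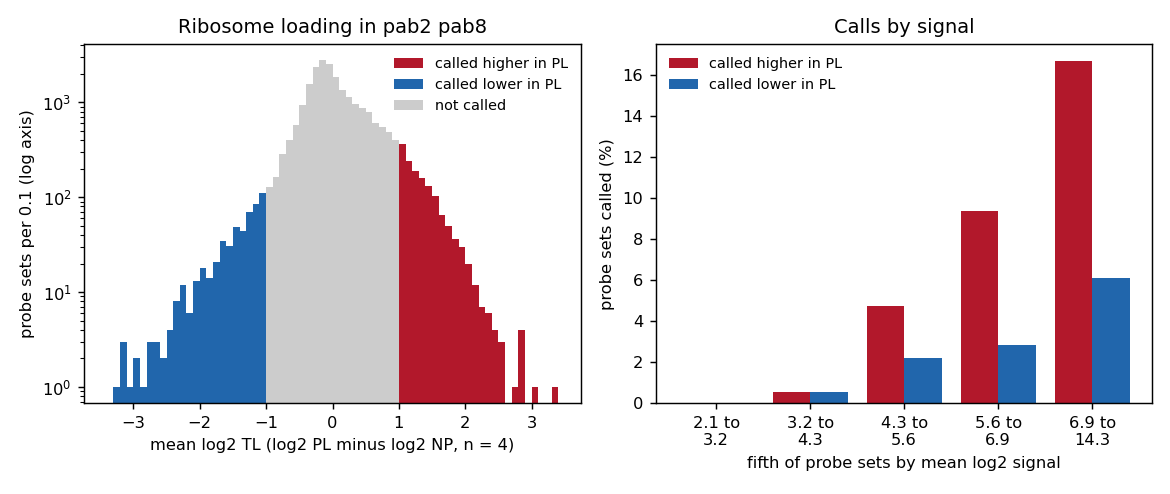
Left, number of probe sets per 0.1 of mean log2 TL in *pab2 pab8* (mean of 4 replicates) on a log axis, with the 1428 called higher in PL in red and the 534 called lower in blue. Right, percent of probe sets called in each direction in 5 equal groups ordered by mean log2 signal, which is 16.7% higher and 6.11% lower in the brightest group and 0.022% each in the dimmest.

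Loading was measurable mainly for bright probe sets. In the brightest of 5 equal groups by mean signal, 16.7% were called higher and 6.11% lower, and the median log2 TL was 0.31. In the dimmest group, 0.022% were called in each direction and the median was -0.14, with a spread over genes (SD) of 0.16 against 0.79 in the brightest. Values near 0 of dim genes are therefore no measure of their loading. Replicates of log2 TL correlated with each other at r = 0.697 to 0.83 across genes, and the median SD over the 4 replicates was 0.27. Replicate 2, with the low NP array, had a median log2 TL of 0.15, against -0.04 to -0.07 in the other replicates. Without it 1299 probe sets were higher and 632 lower.

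The mRNAs with the highest loading included stress proteins and secretory proteins. *AT1G64370*, which the annotation leaves without a symbol, had log2 signals of 8.88, 9.99, 10.31 and 9.60 in PL and 6.38, 6.17, 6.62 and 6.21 in NP (log2 TL 3.35 ± 0.60, SD, n = 4, FDR = 9.54e-08 from limma), a 10.2-fold difference with no overlap. *RAB18*, a dehydrin induced by abscisic acid, had 6.55, 7.53, 6.85 and 6.21 in PL and 3.81, 4.12, 3.61 and 3.40 in NP (3.05 ± 0.33, 8.29-fold). *NAI2*, which is needed to form the ER bodies of seedlings, had 6.81, 7.85, 7.57 and 8.05 in PL and 4.52, 4.70, 4.57 and 5.17 in NP (2.83 ± 0.37, 7.11-fold). Every PL array of these genes lay above every NP array. *PYK10*, the main glucosidase of the ER bodies, was also called higher, with a log2 TL of 1.82 ± 0.12. So were *CYS1*, a cystatin that inhibits cysteine proteases, with 2.32 ± 0.48, and *GAMMA-VPE*, a vacuolar processing protease, with 1.80 ± 0.20. The remaining genes among the 12 highest were *AT4G34290*, *ECP63*, *AT5G45350*, *AT4G19200*, *AT1G18210*, *AT1G67860*, *AT4G22490* and *AT3G14067*, with log2 TL of 2.17 to 2.89.

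Among genes with symbols, housekeeping functions with high loading were varied. *GRXC2*, a glutaredoxin, had log2 signals of 10.38, 10.66, 10.65 and 10.52 in PL and 8.57, 8.58, 8.69 and 8.56 in NP (log2 TL 1.96 ± 0.11, 3.88-fold). *PRPL11*, a plastid ribosomal protein made in the cytosol, had a log2 TL of 2.15 ± 0.34. *ISU1*, a scaffold for iron-sulphur clusters in mitochondria, had 1.903 ± 0.31, *PFD1*, a subunit of the chaperone prefoldin, 1.89 ± 0.09, and *CLPP4*, a subunit of the plastid Clp protease, 1.82 ± 0.13. *HEMB1* of tetrapyrrole synthesis had 1.73 ± 0.44, and *Y14* of the exon junction complex 1.70 ± 0.43. Their wild-type log2 TL values were 1.85, 2.25, 1.89, 2.21, 1.85, 1.71 and 1.67 in the same order, and no difference from wild-type passed the FDR.

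At the low end stood organellar transcripts and a set of nuclear mRNAs. *AT3G27340* had log2 signals of 5.36, 5.80, 5.35 and 5.09 in PL and 8.63, 8.44, 8.31 and 8.36 in NP (log2 TL -3.03 ± 0.30, 8.20-fold lower, FDR = 4.71e-08). *AT4G25030* had 6.07, 6.31, 6.22 and 5.97 in PL and 9.10, 9.13, 9.13 and 8.97 in NP (-2.94 ± 0.10, 7.68-fold lower). All NP arrays of these genes exceeded all PL arrays by more than 2 on the log2 scale. *AT2G06390*, with -2.82 ± 0.50, is a pseudogene in the TAIR10.1 annotation. Of the 64 pseudogenes with a signal at or above the median of all probe sets, 2 were called higher and 5 lower. Over all probe sets at that signal, 11.6% were called higher and 4.14% lower. *AT5G58570*, *AT2G46490*, *AT5G52780* and *AT5G47435* had log2 TL of -2.58 to -2.72.

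Some of the genes called lower had high signals. *UBC8*, an E2 enzyme that passes ubiquitin on to its targets, had log2 signals of 10.34, 10.79, 11.01 and 10.65 in PL and 12.78, 12.89, 12.87 and 13.01 in NP (log2 TL -2.19 ± 0.27, 4.58-fold lower), and its relative *UBC28* had -2.16 ± 0.22 with mean signals of 10.10 in PL and 12.26 in NP. Several regulators of transcription were called lower as well. *EBP*, an ethylene response factor, had 8.31, 9.58, 9.49 and 8.41 in PL and 11.01, 11.48, 11.64 and 11.35 in NP (-2.42 ± 0.48, 5.36-fold lower). *SPL3* and *SPL2*, factors of phase change and flowering that are targets of miR156, had -2.47 ± 0.59 and -1.41 ± 0.22. *DI19*, a zinc finger protein of drought response, had -2.25 ± 0.50, and *MYB48* had -1.66 ± 0.33. *DI21*, a gene named for its induction by drought, had -2.48 ± 0.31. None of these differed from wild-type by the FDR, and *UBC8* had -2.15 ± 0.24 there.

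Short secreted peptides among the most extreme genes fell on both sides. *STOMAGEN*, a peptide that promotes stomata, was called lower with log2 TL -2.08 ± 0.25. Of the RALF family of signalling peptides, 3 members stood among these extremes. They do not show how the family as a whole was loaded. *RALFL28* had log2 signals of 8.00, 7.57, 7.60 and 8.19 in PL and 6.07, 5.35, 5.42 and 6.20 in NP (2.08 ± 0.14, called higher). *RALFL32* had 7.35, 7.43, 7.30 and 6.80 in PL and 8.99, 9.20, 9.16 and 8.30 in NP (-1.69 ± 0.16), and *RALF23* had -1.50 ± 0.14, both called lower. In each of the 3 genes the PL and NP arrays did not overlap. Among nuclear genes at or above the median signal, the 1286 with the shortest genomic span (127 to 1507 bases) held 7.85% called lower and 11.3% called higher. The 1284 with the longest (3442 to 26500 bases) held 2.26% and 6.39%, and the SD of log2 TL over genes was 0.80 in the shortest and 0.56 in the longest group.

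**Figure D2:**
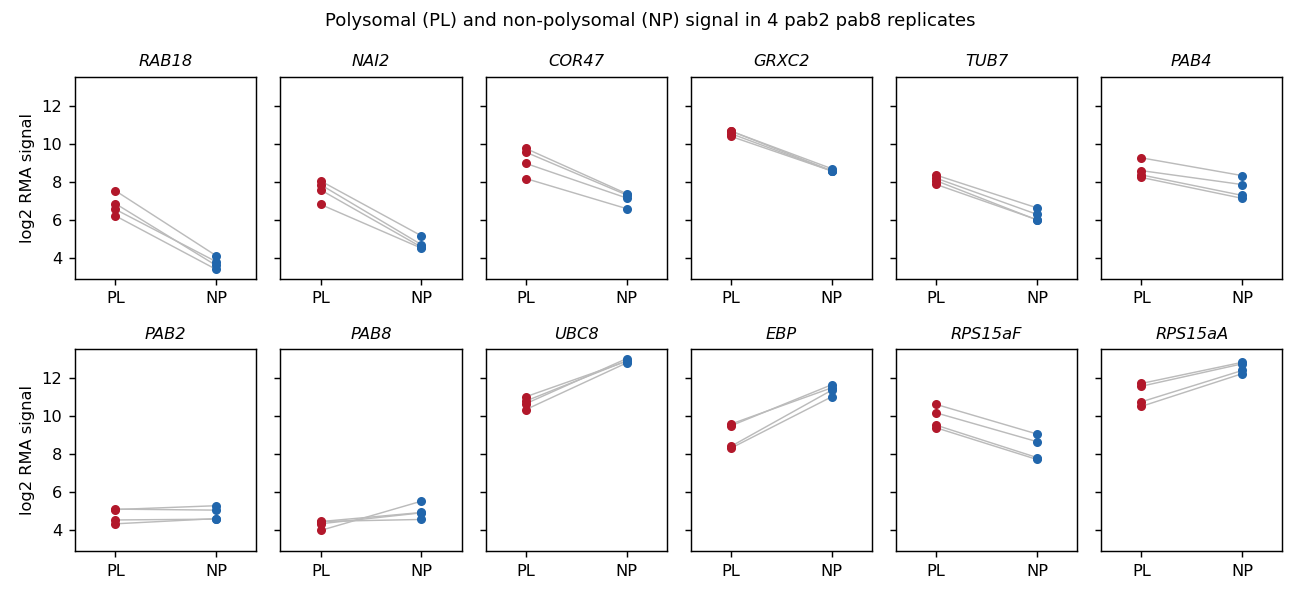
Log2 signal of 12 genes on the PL arrays (red, left) and NP arrays (blue, right) of *pab2 pab8*, with a line for each of the 4 replicates. Lines fall from PL to NP for *RAB18*, *NAI2*, *COR47*, *GRXC2*, *TUB7*, *PAB4* and *RPS15aF*, and rise for *PAB8*, *UBC8*, *EBP* and *RPS15aA*.

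The poly(A) binding protein genes themselves came next. *PAB4* (AT2G23350), the remaining main form, had log2 signals of 8.59, 8.23, 8.36 and 9.26 in PL and 7.85, 7.13, 7.29 and 8.32 in NP. All 4 replicates were higher in PL, although the ranges overlapped, and log2 TL was 0.96 ± 0.17 in the mutant (1.94-fold, FDR = 6.80e-05), just under the fold criterion. In wild-type it was -0.23 ± 0.22, and the difference of 1.19 (standard error 0.17) had FDR = 0.0142. *PAB2* (AT4G34110) had 4.55, 5.11, 5.09 and 4.34 in PL and 4.59, 5.06, 5.29 and 4.62 in NP. Its log2 TL of -0.12 ± 0.15 did not pass the FDR, and both fractions were near the level of dim probe sets, whereas wild-type had -1.08 ± 0.20. *PAB8* (AT1G49760) had 4.00, 4.47, 4.46 and 4.35 in PL and 5.53, 4.57, 4.94 and 4.92 in NP, a log2 TL of -0.67 ± 0.61 (FDR = 0.0132, 1.59-fold lower). Replicate 1 was lowest with -1.54, and the other replicates ran from -0.57 to -0.10. Wild-type replicates ran from -0.64 to -0.06. The mean signal of *PAB8* in the mutant was also below the median of all probe sets (4.95).

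Lists of genes with known roles are described by their counts and medians, read against 6.28% called higher, 2.35% called lower and a median log2 TL of -0.04 over all probe sets, or 11.6%, 4.14% and 0.23 over the 11373 at or above the median signal. A list member counts as measured where it was matched to a probe set by name. As 8185 probe sets had no gene name here, the other members may still be on the arrays. The median log2 TL of the lists ran from -0.97 for plastid-encoded genes to 1.57 for late embryogenesis abundant (LEA) proteins and dehydrins. This range is for lists with 7 or more members and leaves aside the subsets of plastid genes by complex.

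**Figure D3:**
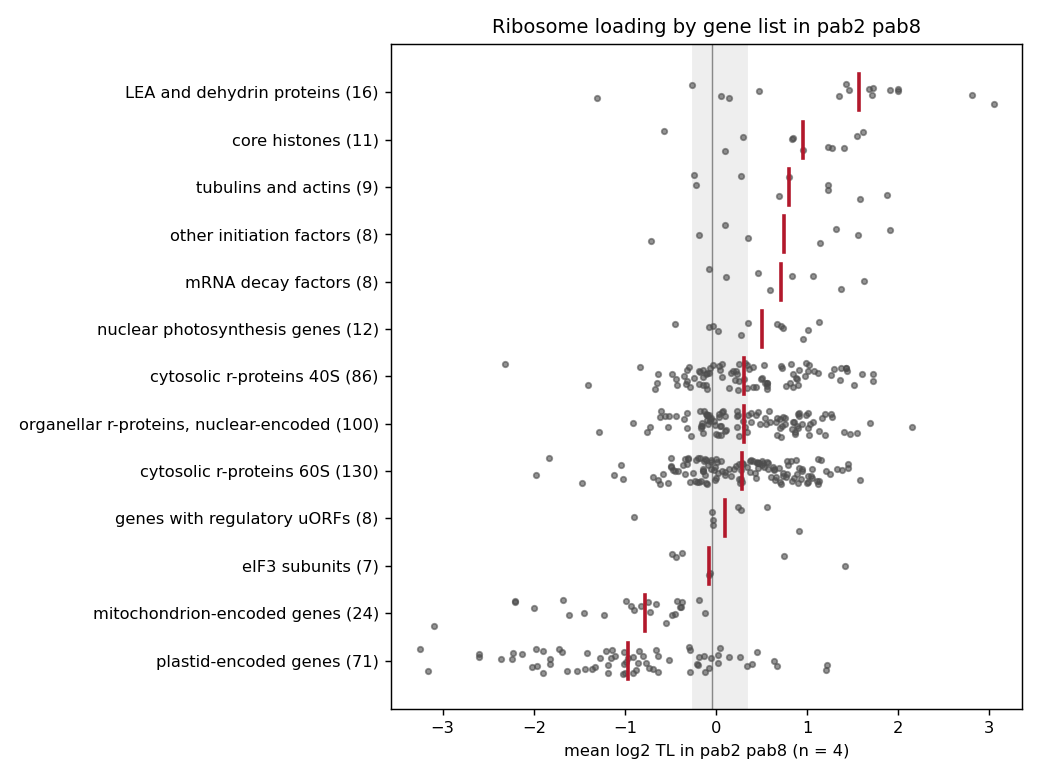
Mean log2 TL in *pab2 pab8* (n = 4) of each measured member (grey points) of 13 gene lists with 7 or more members, with the list median in red and the number of members in brackets. The grey band is the middle 50% of all probe sets (-0.25 to 0.34), and the lists of plastid-encoded and mitochondrion-encoded genes have medians of -0.97 and -0.78 below it.

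The plastid genome encodes core subunits of the photosystems, of the ATP synthase and of the plastid ribosome, which plastid ribosomes translate. Most plastid RNA carries no stable poly(A) tail, and a labelling reaction primed on poly(A) may sample only some of it. Of 71 plastid-encoded genes, 2 were called higher and 33 lower, with a median log2 TL of -0.97. In wild-type 1 was higher and 36 lower, with a median of -1.01, and none of the 71 differed between genotypes by the FDR. *psbA*, for the D1 protein of photosystem II, had log2 signals of 10.16, 11.15, 10.56 and 10.29 in PL and 13.63, 14, 13.90 and 13.62 in NP (log2 TL -3.25 ± 0.27, 9.50-fold lower). Wild-type had -2.40 ± 0.42, and the difference of -0.84 had FDR = 0.352. *psbN* had 5.997, 5.13, 5.58 and 4.85 in PL and 8.67, 8.45, 9.02 and 8.08 in NP (-3.16 ± 0.34). *psaC* and *psaJ* of photosystem I both averaged -2.60, with SDs of 0.40 and 1.03.

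By complex, 3 of 5 photosystem I genes, 8 of 15 photosystem II genes, 3 of 6 cytochrome b6f genes, 5 of 10 NDH genes and 7 of 17 ribosomal protein genes were called lower. Within photosystem I, the large subunits *psaA* and *psaB* had log2 TL of 0.26 ± 0.42 and -0.08 ± 0.35, while the small *psaC*, *psaI* and *psaJ* had -2.60, -2.23 and -2.60. The large antenna proteins *psbB*, *psbC* and the reaction centre gene *psbD* had 0.02, -0.20 and -0.05. By contrast *psbA*, as long as *psbD* with 1062 bases, had -3.25. Mean signals of *psaA* and *psbD*, 4.98 and 5.17, were close to the median of all probe sets (4.95). Those of *psaB*, *psbB* and *psbC* were 12.71, 5.88 and 7.73. Of 23 plastid genes of at most 300 bases, 0 were called higher and 16 lower by limma (median -1.27), and of 46 longer genes 2 were higher and 17 lower (median -0.82). The rank correlation of length with log2 TL (Spearman's rho) was 0.366 over these 69 genes. It was 0.234 within the shorter and 0.203 within the longer group. *rbcL*, for the large subunit of Rubisco, had -0.88 ± 0.45 (FDR = 0.000836), short of the fold criterion. The 2 genes called higher were *atpB* with 1.22 ± 0.24 and *rpl22* with 1.21 ± 0.47.

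Neighbouring plastid genes that are known to be transcribed together differed in log2 TL. *atpB* had log2 TL of 0.96, 1.30, 1.52 and 1.12 in replicates 1 to 4, while *atpE*, the next gene of the same transcript, had -0.20, -0.32, -0.27 and -0.34. In the cluster of *atpI*, *atpH*, *atpF* and *atpA*, *atpH* and *atpF* were called lower with -1.43 ± 0.17 and -1.11 ± 0.30, and *atpI* and *atpA* had 0.34 ± 0.23 and 0.67 ± 0.67. All 4 replicates of *atpB*, *atpI* and *atpA* were above 0 and all 4 of *atpE*, *atpH* and *atpF* below. After *psaA* and *psaB*, *rps14* of the same cluster had -1.14 ± 0.28. In the cluster of *psbB*, *psbT*, *psbH*, *petB* and *petD*, log2 TL was 0.02, -0.997, -0.64, -0.91 and -0.97, and *psbN*, which lies in it on the opposite strand, had -3.16. Of these genes, *atpI*, *psbT*, *petD* and *rps14* had mean signals of 4.09 to 4.69, below the median of all probe sets (4.95). Different probe sets are compared here, so a shared transcript need not give equal values, and these differences within clusters were not tested.

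**Figure D4:**
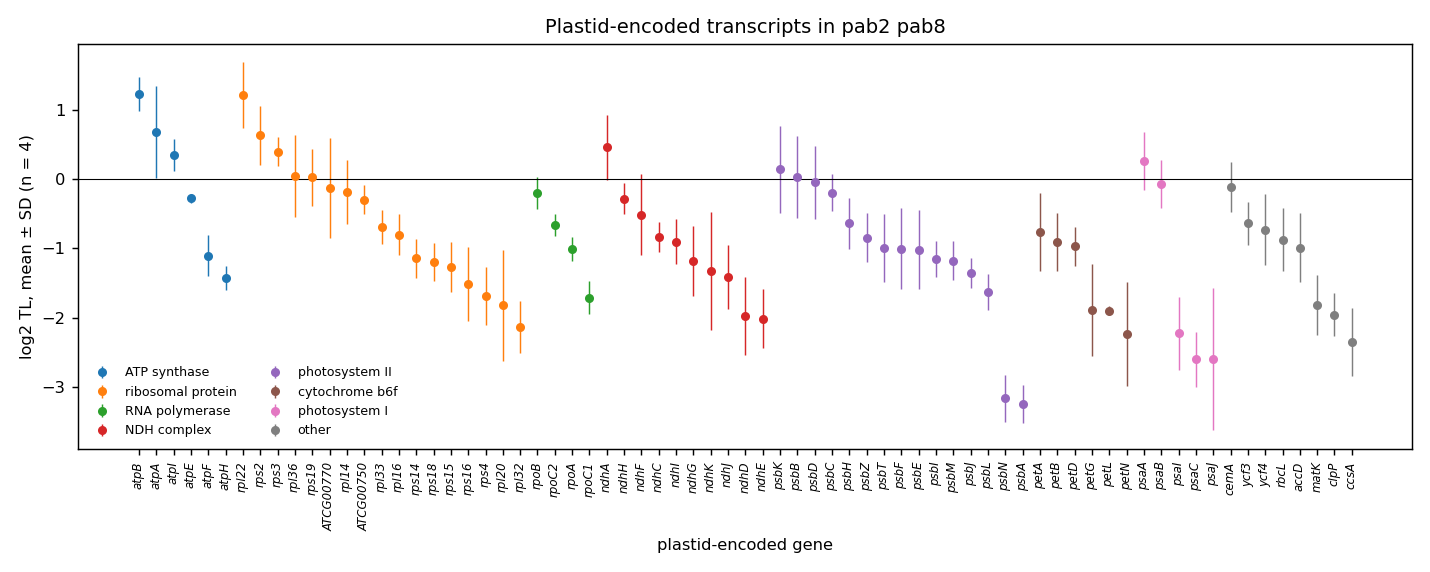
Mean log2 TL of plastid-encoded genes in *pab2 pab8*, grouped by complex and sorted within it, with error bars of 1 SD (n = 4). *psbA* and *psbN* lie lowest with -3.25 and -3.16, and *atpB* and *rpl22* highest with 1.22 and 1.21.

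Mitochondrion-encoded genes, mostly subunits of the respiratory chain, were lower as well, and most were dim. Of 24 probe sets, 0 were called higher and 8 lower by limma, with 20 lower at the FDR alone and a median log2 TL of -0.78, against -1.19 in wild-type. *ATMG01370* was lowest with log2 signals of 3.34, 5.12, 5.42 and 4.71 in PL and 6.97, 7.74, 8.26 and 8.02 in NP (-3.10 ± 0.46), and *cox1*, a subunit of cytochrome oxidase, had -2.20. The 7 probe sets for *nad1*, whose exons are joined from separate transcripts, ranged from -0.38 to -2.20.

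Nuclear genes for proteins of these organelles had positive medians, as did all probe sets at or above the median signal (0.23). The median for mitochondrial ribosomal proteins lay below that value. Of 51 nuclear photosynthesis genes 12 were measured, and 2 were called higher and 0 lower, with a median of 0.51. *PSBY* had 12.36, 11.89, 11.96 and 12.13 in PL and 10.97, 10.95, 10.92 and 10.96 in NP (log2 TL 1.13 ± 0.19, called higher), and *LHCB4.3* 1.02 ± 0.32. The photosystem I genes *PSAN*, *PSAE-1*, *PSAE-2* and *PSAG* had 0.95, 0.72, 0.74 and 0.35, and the antenna genes *LHCB4.1* and *LHCB4.2* -0.03 and -0.07. *LHCA4* and *RCA* were dim on all 8 arrays (3.48 and 3.83) although bright in total RNA (13.69 and 14.31), so their loading was not measured. Among 100 nuclear genes for organellar ribosomal proteins, 16 were called higher and 1 lower, against 25 and 2 in wild-type. None of the 100 differed from wild-type by the FDR. Those whose proteins go to the plastid had a median of 0.67 (13 of 49 higher, 1 lower), and those of the mitochondrion 0.17 (3 of 50 higher, 0 lower). The 1 called lower was *AT4G17560*, for a plastid L19 protein, with -1.29 ± 0.20, against -0.56 ± 0.11 in wild-type, a difference that did not pass the FDR. Another 22 organellar ribosomal protein probe sets are plastid-encoded, with a median of -0.53.

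Cytosolic ribosomal proteins form both subunits of the cytosolic ribosome, and each is encoded by several paralogs. Of 86 probe sets of the 40S subunit, 15 were called higher and 2 lower (median log2 TL 0.31, wild-type 0.20). Of 130 of the 60S subunit, 18 were higher and 6 lower (median 0.28, wild-type 0.23). None of the 216 differed from wild-type by the FDR. *RPS3aA* had log2 signals of 11.47, 10.53, 10.66 and 12.03 in PL and 9.73, 9.22, 8.82 and 10.02 in NP (1.72 ± 0.30). A probe set shared by *RPL41* paralogs, for the smallest ribosomal protein, had 10.50, 9.21, 9.55 and 9.65 in PL and 12.55, 11.37, 11.04 and 11.86 in NP (-1.97 ± 0.33).

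Paralogs of 1 ribosomal protein could lie far apart. The S15a family alone had members called in opposite directions. *RPS15aF* had log2 signals of 10.16, 9.38, 9.52 and 10.61 in PL and 8.66, 7.72, 7.82 and 9.06 in NP (log2 TL 1.60 ± 0.09), while *RPS15aA* had 11.71, 10.51, 10.74 and 11.56 in PL and 12.82, 12.22, 12.39 and 12.74 in NP (-1.41 ± 0.31). The PL and NP arrays did not overlap in either gene, and the paralogs differed by 3.02 ± 0.40 in *pab2 pab8* and by 3.05 in wild-type. In the S12 family *RPS12C* had 0.97 ± 0.14 and *RPS12B*, a transcribed pseudogene in the annotation, -2.32 ± 0.36. In the L18 family *RPL18B* had 0.94 ± 0.11 and *RPL18C* -1.12 ± 0.22, and in the L22 family *RPL22B* had 0.64 ± 0.10 and *RPL22C* -1.48 ± 0.44. *RPP0A* of the stalk had -1.83 ± 0.75 and its paralog *RPP0C* 0.83 ± 0.51. Wild-type differences within these families were 3.48, 2.46, 1.89 and 2.30 in the same order. Where paralogs are alike in sequence, a probe set may take signal from another member.

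Translation factors were mixed. Of 17 initiation factor genes outside the eIF3 and eIF4 groups 8 were measured, and 4 were called higher and 0 lower, with a median of 0.75. *AT2G04520* led with log2 signals of 9.50, 9.06, 9.50 and 9.74 in PL and 7.65, 7.78, 6.77 and 7.95 in NP (1.91 ± 0.61), and *AT4G27130* was lowest with -0.72 ± 0.24. Of 18 genes for eIF3 subunits, which hold the small subunit during initiation, 7 were measured and 1 was called higher, *EIF3G1* with 1.41 ± 0.08, and the median was -0.07. *EIF4A-2*, a helicase, had 0.78 ± 0.17 and *NCBP*, a cap binding protein, 0.05 ± 0.31. Of 17 genes for mRNA decay 8 were measured, and 3 were called higher and 0 lower (median 0.72), with *AT2G45810* highest at 1.63 ± 0.39 and *LSM1A* lowest at -0.08 ± 0.21. Of 23 genes known for regulatory upstream reading frames, which lower initiation at the main reading frame, 8 were measured and 0 were called in either direction by limma, with 2 higher and 1 lower at the FDR alone. They ranged from *BZIP53* with -0.90 ± 0.21 to *bZIP44* with 0.91 ± 0.61.

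The measured histone and cytoskeleton genes had positive medians. Core histone mRNAs of animals lack poly(A) tails, whereas those of plants carry them. Of 39 core histone loci only 11 were measured, and those with a symbol are *HTB1*, *HTB2*, *HTB4* and *HTB11* for H2B and *HTA9* for a variant H2A. Of the 11, 5 were called higher and 0 lower (median 0.96), while wild-type had 7 higher, 1 lower and a median of 1.498. *HTB2*, for histone H2B, had log2 signals of 8.60, 8.40, 8.40 and 8.77 in PL and 7.32, 6.74, 6.32 and 7.30 in NP (log2 TL 1.62 ± 0.35), against 2.12 ± 0.15 in wild-type, and the difference had FDR = 0.51. *HTA9* was lowest with -0.58 ± 0.33. Of 23 tubulin and actin genes 9 were measured, and 4 were called higher and 0 lower (median 0.80). *TUB7* had 8.19, 8.06, 7.86 and 8.35 in PL and 6.29, 5.997, 6.01 and 6.63 in NP (1.88 ± 0.14), and *TUA6* had -0.22 ± 0.33. Of 16 heat shock genes 3 were measured, and *HSP81-2* and *AT3G09440* were called higher, with 1.29 and 1.14. Of 23 Aux/IAA repressor genes 3 were measured and *IAA20* was called higher with 1.33 ± 0.22, and 0 of the 4 clock genes measured, of 12, were called, *LHY* being highest with 0.59 ± 0.42.

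LEA proteins and dehydrins, which accumulate in drying seeds and under cold or drought, were the list with the highest median log2 TL among those described here. Of 22 genes 16 were measured, and 11 were called higher and 1 lower (median log2 TL 1.57). In wild-type 5 were higher and 0 lower (median 0.48). The list was chosen with changes in this mutant known, so its higher median is a description. Some members had close values in both genotypes. *COR47*, a dehydrin of cold response, had 8.17, 9.75, 9.55 and 8.96 in PL and 6.59, 7.38, 7.31 and 7.15 in NP (2.00 ± 0.37), against 2.00 ± 0.17 in wild-type, and *LTI30* had 1.71 ± 0.25, against 1.36 ± 0.64. *SAG21*, a mitochondrial LEA protein of senescence, was the 1 member called lower, with -1.31 ± 0.41, against -0.85 ± 0.36 in wild-type.

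Other members had a lower mean log2 TL in wild-type, where both fractions were dim, so their loading there was not measured. *ECP63* had log2 signals of 7.92, 10.12, 9.08 and 6.40 in PL and 5.48, 6.57, 5.60 and 4.63 in NP. Its level varied among replicates so that the fractions overlapped, yet every replicate was higher in PL, by 2.44, 3.55, 3.49 and 1.77. Its log2 TL was 2.81 ± 0.86 in *pab2 pab8* and 0.03 ± 0.74 in wild-type, a difference of 2.79 (FDR = 0.00866). The mean signals in wild-type were 3.94 in PL and 3.91 in NP. Its log2 signal in total RNA was 3.59 in the mutant and 2.92 in wild-type, below that of either fraction. *M17* and *AT3G53040* had 1.68 ± 0.69 and 1.43 ± 0.40 in the mutant and 0.02 ± 0.19 and -0.30 ± 0.34 in wild-type (FDR of the differences 0.0399 and 0.0075), with wild-type signals of 2.44 in PL and 2.42 in NP for *M17* and 3.39 and 3.68 for *AT3G53040*. *LEA7* and *LEA18* had 2.00 ± 0.71 and 1.91 ± 0.68 in the mutant, against 0.56 ± 0.66 and 0.52 ± 0.50 in wild-type, and their differences did not pass the FDR (0.318 and 0.27). Their wild-type signals were also low, with 4.27 and 3.55 in PL and 3.71 and 3.03 in NP.

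Of 8 seed storage genes 3 were measured, and 2 were called higher in the mutant. *CRU3*, a cruciferin, had 6.11, 9.27, 7.18 and 5.08 in PL and 4.07, 7.14, 5.48 and 4.27 in NP. As for *ECP63*, levels differed widely among replicates, and replicate 2 was the highest in both fractions. Its log2 TL was 1.67 ± 0.60 in *pab2 pab8* and -0.27 ± 0.20 in wild-type (FDR of the difference 0.0075). *CRA1*, another cruciferin, had 1.07 ± 0.23 in *pab2 pab8* and -0.24 ± 0.21 in wild-type (FDR = 0.00866). Wild-type signals were again dim, with 3.62 in PL and 3.89 in NP for *CRU3* and 2.49 and 2.73 for *CRA1*. In the mutant, only 1 of the 3 measured storage genes, *CRU3*, reached the median signal of all probe sets. The call of *CRU3* in the mutant was lost when PL and NP were not paired by replicate (FDR = 0.2), as was that of *M17* (FDR = 0.0658). That of *CRA1* fell short of the fold criterion after median centring (log2 TL 0.99) and without replicate 2 (0.97). Of 7 oleosin genes, for proteins of seed oil bodies, 5 were measured and 2 were called higher, *OLEO2* with 1.10 ± 0.62 and *AT2G25890* with 1.08 ± 0.70, and the wild-type values were -0.54 and -0.26. Both calls were lost without replicate 2 (0.81 and 0.82), and that of *AT2G25890* also after median centring (0.996). Differences in TL passed the FDR and the fold criterion for 6 of 22746 probe sets (0.0264%), all higher in the mutant, and 1 other (0.0044%) was lower at the FDR alone. The 6 were *ECP63*, *M17*, *AT3G53040*, *CRU3*, *CRA1* and *PAB4*, and of these only *PAB4* was bright in wild-type, with 8.88 in PL and 9.11 in NP. Each of these differences lost its call without replicate 3 of both genotypes (FDR = 0.143 to 0.491), those of *PAB4*, *CRA1* and *M17* also without replicate 2 or 4, and those of *CRU3* and *AT3G53040* without replicate 2, while all kept their direction.

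**Figure D5:**
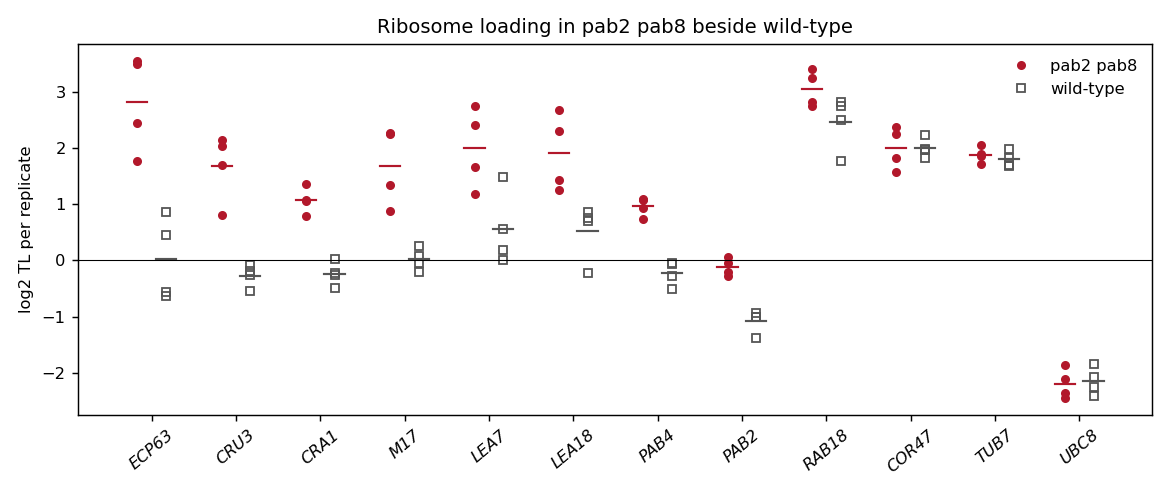
Log2 TL per replicate (4 points each) and mean (line) in *pab2 pab8* (red circles) and wild-type (grey squares) for 12 genes. The genotypes do not overlap for *ECP63*, *CRU3*, *CRA1*, *M17*, *LEA18*, *PAB4* and *PAB2*, while *COR47*, *TUB7* and *UBC8* have close means. The differences of *LEA18* and *PAB2* did not pass the FDR. Wild-type signals of *ECP63*, *CRU3*, *CRA1*, *M17* and *LEA18* were dim, from 2.42 to 3.94, and mutant signals of *PAB2* were near the level of dim probe sets.

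Calls were also compared with those of wild-type. In wild-type 1534 probe sets were called higher (6.74%) and 605 lower (2.66%), and without the fold criterion 25.4% were higher and 28.5% lower. Of the mutant's calls, 1135 higher ones (79.5% of the mutant's and 74.0% of the wild-type's) and 412 lower ones (77.2% and 68.1%) were shared. The sign was opposite in wild-type for 7 of the 1428 called higher and 0 of the 534 called lower in the mutant. Mean log2 TL correlated between the genotypes at r = 0.919 across genes. Single replicates correlated at 0.697 to 0.83 within *pab2 pab8* and 0.805 to 0.879 within wild-type, which cannot be set against the value for means of 4, since averaging raises r. The genotypes were grown together and their signals were computed in the same way, and genes are not independent replicates.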

How the data were processed

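PL and NP RNA was hybridised to ATH1 arrays, which hold several short probes per transcript. The log2 signals per probe set were computed by the authors with robust multi-array averaging (RMA) in the affy package and deposited, with tool versions not given in the sources used here. RMA corrects background and usually scales arrays to a common distribution. The deposited arrays did not share a common distribution, with an SD over probe sets of 2.05 to 2.15 for PL and 1.92 to 2.0 for NP. Total RNA arrays of *pab2 pab8* lay higher, with medians of 6.17 to 6.23. Log2 TL is therefore relative to the scaling, and the number of arrays limits the precision. Control probe sets were left out, which left 22746.

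Log2 TL was taken within each replicate and tested against 0 with limma 3.58.1 in R 4.3.3 (moderated variances, two-sided, Benjamini-Hochberg over all probe sets). The difference in TL from wild-type was tested with limma on 4 against 4 values. Scripts were tested on simulated data. PL and NP of a replicate came from the same gradient, and their deviations from the group means correlated at r = 0.575, 0.419, 0.475 and 0.587 across probe sets. Per the labels, replicates were biological and grown at different times.

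Genes were named from the platform annotation (13513 probe sets) and the study's ribosomal protein lists (500). Another 548 probe sets had several genes and 8185 none here. The named genes were the 12 highest and 12 lowest called ones with 1 gene, at least median signal and all 4 replicates on one side of 0, the *PAB* genes, the extremes of each list and paralogs called in opposite directions. Genes with symbols, the grouping of plastid genes, gene span (TAIR10.1), further list members and the widest ribosomal protein families were added after values were seen. Members and lists were chosen with earlier results of these data known. Alternatives were median centring, quantile normalization, no pairing, a pooled spread, a variance trend, brighter probe sets, other thresholds and each replicate left out.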

Additional observations from a re-analysis of the deposited data

Results flagged for a closer look

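Among 269 groups of 4 replicates, 10 held a value set apart from the other 3, where chance alone marks about 1 group in 20. The NP array of replicate 2 had a median log2 signal of 4.679, against 4.95 in the other 3, and the median log2 TL of all probe sets in replicate 2 was 0.146. The median log2 TL of the eIF3 genes was -0.34 in replicate 3. Single log2 TL values that stood apart were 1.661 for *IAA20*, 2.307 for *AT3G17520* and 0.029 for *ycf4*, all in replicate 2. In replicate 1 they were 0.56 for *AT1G18070* and 0.978 for *AT2G37470*, and in replicate 4 1.102 for *HSP81-2* and 1.742 for *AT3G15670*.

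Log2 TL differed between *pab2 pab8* and wild-type, by limma on the difference, for 6 named genes. The differences were 2.785 for *ECP63*, 1.942 for *CRU3*, 1.723 for *AT3G53040*, 1.661 for *M17*, 1.308 for *CRA1* and 1.188 for *PAB4*, all higher in the mutant. In wild-type the mean signals of all but *PAB4* lay between 2.42 and 3.94 in both fractions, where log2 TL near 0 is no measure of loading. The mRNAs of *CRU3* and *CRA1* were also more abundant in total RNA, with mean log2 signals of 8.17 and 8.70 in *pab2 pab8* and 4.88 and 5.26 in wild-type (n = 3 each). Its part in the difference in TL was not tested.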

How the results depend on the processing

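Of 2416 alternative values of log2 TL for 245 named genes, 2297 stayed on the same side of the thresholds, 36 lost and 29 gained a call, 54 moved by more than the replicate SD and 0 changed direction. Quantile normalization gave 821 probe sets higher and 811 lower, and 1118 and 635 were called after median centring, which moved the median of all probe sets by -0.08. After centring, 4 named calls were lost, those of *AT3G58560*, *LHCB4.3*, *CRA1* and *AT2G25890*, and 3 were gained, those of *psbT*, *petD* and *accD*. A 1.5-fold criterion gave 3587 and 1579, and the FDR alone 5202 and 3075. Leaving out 1 replicate gave 1299 to 1621 higher and 495 to 632 lower. Without the replicate block, which pairs PL with NP, 1359 were higher and 520 lower, and 7 named calls were lost, those of *CRU3*, *M17*, *AT2G25890*, *AT3G53650*, *psbE*, *psbF* and *ndhK*. The cause of these changes was not tested.

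List medians of log2 TL moved in 12 of 21 lists with quantile normalization, to 0.10 for 40S, 0.079 for 60S, 0.10 for nuclear-encoded and -0.76 for plastid-encoded organellar ribosomal proteins, 0.73 for histones, -0.35 for eIF3, -0.28 for elongation and release factors, 0.85 for heat shock proteins, 0.51 for decay factors, 0.37 for nuclear photosynthesis genes, 0.49 for other initiation factors and 0.58 for tubulins and actins. Among the 11373 probe sets at or above the median signal, which leaves fewer members, 10 medians moved, some by more, and were 0.47 for 40S, 0.44 for 60S, 0.46 for nuclear-encoded organellar ribosomal proteins, -1.68 for mitochondrion-encoded genes, 0.55 for Aux/IAA genes, 1.23 for histones, 0.70 for nuclear photosynthesis genes, 1.10 for oleosins, 0.96 for poly(A) binding proteins and 1.67 for seed storage proteins. Median centring gave 1.06 for heat shock proteins and 0.43 for nuclear photosynthesis genes. With 1 replicate left out, the eIF3 median ran from -0.31 to -0.058 and that of heat shock proteins from 1.06 to 1.19.

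All 6 differences from wild-type kept their direction. Without replicate 3 their FDR was 0.143 for *ECP63*, *CRU3*, *CRA1* and *AT3G53040*, 0.263 for *PAB4* and 0.491 for *M17*. The difference of *OLEO2* passed after median centring (FDR = 0.0206) and without replicate 4 (0.0137), that of *LEA7* without replicate 1 (0.00964) and that of *AT2G25890* without replicate 1 (0.0434). With the replicate as a block in the test of the difference, 245 of 245 named genes stayed on the same side of the threshold. Dim probe sets had log2 TL near 0, so low signal limits what could be seen.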

Other observations

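Signals in total RNA and in the fractions did not always match in *pab2 pab8*. These arrays were not on a common scale, as the total RNA signal was higher by a median of 0.888 over all probe sets. Equal signals therefore do not mark equal levels. Across probe sets the mean log2 signal of the 3 total RNA arrays correlated at r = 0.833 with the mean of PL and NP, whereas PL and NP means correlated at 0.964. Of 1165 probe sets with a total RNA signal of 10 or more, 72 had a mean below 5 on the PL and NP arrays, *RCA* (14.31 in total RNA, 3.83 in the fractions) and *LHCA4* (13.69 and 3.48) among them, and 2 of the 72 were called. In the other direction *RALFL28* had 3.31 in total RNA and 6.80 in the fractions, and *ECP63* 3.59 and 6.97.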
